A study of Homo sapiens with 3 samples.

Results

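Molecular chaperones were followed through 1 list of eCLIP peaks, that is, genome positions where RNA crosslinked to an immunoprecipitated protein gave a pile of reads. The protein named in the sample titles was the pregnane X receptor (PXR), which switches on detoxification genes when it binds drugs or bile acids. Members were the 75 protein-coding genes whose symbol named a J protein of class A, B or C, a heat shock protein of the HSPA, HSPB, HSP90A, HSPD, HSPE or HSPH series, or a subunit of the cytosolic chaperonin, with HSPA5 left out. A peak was a member's when its centre lay in the gene's RefSeq span. This gave 120 of the 21031 peaks in the list, and 49 of the 75 genes held at least 1 peak.

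The 2 immunoprecipitate replicates and the 1 input library all came from LS174T, an established human colon adenocarcinoma line, 24 h after transfection with HA-tagged mouse Pxr, so the input carried the construct too. Cells were crosslinked at 254 nm and 400 mJ/cm2. Which antibody (PXR, HA or IgG) served each library, and whether the list rests on 1 or both replicates, was not stated in the labels. No values of single libraries were used, so nothing below has a replicate error, and how much RNA each gene made in these cells was not measured in the list. RNA abundance and enrichment by the antibody therefore cannot be told apart in any value below. The labelled cell type was set against its markers, and 12 of 13 colon epithelial markers held a peak, with 16 to 1147 reads under their summits and KRT20 without one. None of 4 hepatocyte and 4 blood markers did, and of 5 fibroblast and endothelial markers only COL1A2 did, with 10 reads. Over all coding genes 41.6% held a peak. The marker lists were chosen with earlier results of these data known, so they are no independent check of the label.

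Chaperones bind unfolded chains and help them fold, refold or reach a protease. HSP70 proteins work in cycles of ATP hydrolysis that J proteins (DNAJ) start and that HSP110 proteins reset by exchanging the nucleotide. HSP90 acts late, on nearly folded clients that include steroid receptors and kinases, while chaperonins enclose a chain in a barrel, HSPD1 with its lid HSPE1 in mitochondria and the ring of TCP1 and CCT subunits in the cytosol, where actin and tubulin are its best known clients. Small heat shock proteins (HSPB) hold unfolded chains without ATP. Heat shock factor 1 switches many of these genes on through heat shock elements, repeats of the letters GAA in alternating orientation.

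The stretch before the start of transcription is shown for 5 members: HSP90AB1, HSPA8 and HSPD1, which are 3 of the 4 genes with the deepest summits and hold long heat shock elements, and DNAJA1 and TCP1, which hold such letters and have a peak that began within 12 bases of the listed start. Each runs 5′ to 3′ on the strand of the gene from 250 bases before the start to the first 20 transcribed bases, as listed by RefSeq for GRCh38.p14. Capitals mark GAANNTTC, a heat shock element of 2 units with N for any base, and its form of 3 units, in which NNGAA follows it or TTCNN comes before it.
HSP90AB1: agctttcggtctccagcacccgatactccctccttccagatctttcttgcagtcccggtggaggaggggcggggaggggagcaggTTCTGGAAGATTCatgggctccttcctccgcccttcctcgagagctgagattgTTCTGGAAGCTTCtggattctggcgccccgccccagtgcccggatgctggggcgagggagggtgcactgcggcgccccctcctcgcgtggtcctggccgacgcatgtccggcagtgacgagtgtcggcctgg
HSPA8: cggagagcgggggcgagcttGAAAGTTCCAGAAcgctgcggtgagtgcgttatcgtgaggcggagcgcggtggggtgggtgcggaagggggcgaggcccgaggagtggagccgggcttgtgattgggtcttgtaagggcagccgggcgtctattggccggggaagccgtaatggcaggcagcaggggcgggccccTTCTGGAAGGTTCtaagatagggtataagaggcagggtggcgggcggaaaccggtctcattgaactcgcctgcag
HSPD1: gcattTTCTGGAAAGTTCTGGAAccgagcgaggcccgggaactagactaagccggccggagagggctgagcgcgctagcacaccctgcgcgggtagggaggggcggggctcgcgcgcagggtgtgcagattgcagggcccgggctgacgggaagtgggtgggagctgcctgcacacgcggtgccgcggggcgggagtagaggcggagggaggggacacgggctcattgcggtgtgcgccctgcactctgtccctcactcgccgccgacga
DNAJA1: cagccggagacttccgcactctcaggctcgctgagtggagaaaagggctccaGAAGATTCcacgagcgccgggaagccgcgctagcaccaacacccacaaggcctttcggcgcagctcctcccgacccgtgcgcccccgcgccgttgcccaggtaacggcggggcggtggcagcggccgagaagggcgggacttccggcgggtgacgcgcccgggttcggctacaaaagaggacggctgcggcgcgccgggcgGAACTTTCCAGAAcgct
TCP1: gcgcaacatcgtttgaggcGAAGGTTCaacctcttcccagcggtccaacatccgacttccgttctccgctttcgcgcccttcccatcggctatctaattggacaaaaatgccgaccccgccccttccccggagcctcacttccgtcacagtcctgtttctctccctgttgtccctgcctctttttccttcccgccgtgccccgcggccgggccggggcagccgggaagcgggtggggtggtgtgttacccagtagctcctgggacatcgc
The HSP90AB1 stretch is chr6:44247693-44247962 on the plus strand and holds 2 elements of 3 units, which begin 165 and 112 bases before the listed start at 44247943. That start is the most downstream of the 3 listed, so the elements lie inside the gene span, and the windows at the other starts hold none. The HSPA8 stretch is chr11:123062117-123062386 on the minus strand, with elements beginning 230 and 55 bases before the start. Both also lie inside the gene span, which reaches upstream to 123062462. In HSPD1, chr2:197499821-197500090 on the minus strand, 2 overlapping elements begin 245 and 240 bases before the more downstream of 2 listed starts. They too lie inside the gene span, and the window at the other start holds none. DNAJA1, chr9:33025023-33025292 on the plus strand, holds a 2-unit element 198 bases before the start and a 3-unit element from 3 bases after it, and TCP1, chr6:159789583-159789852 on the minus strand, holds only the shorter form, 231 bases before the start. These letters are a description of the windows, and nothing about binding by the factor was measured.

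Promoter windows of 300 bases were listed for 68 of the 75 genes, 89 windows in all. GAANNTTC, which reads the same on both strands, occurred in 20 of the 89 (22.5%), and in 2377 of all 35116 listed windows (6.77%). Either 3-unit form, each being the reverse complement of the other and containing GAANNTTC, occurred in 7 of the 89 (7.87%) and in 172 of all windows (0.49%). The 7 genes were DNAJA1, DNAJB6, HSP90AA1, HSP90AB1, HSPA6, HSPA8 and HSPD1, and each of them held a peak, as did 46 of the 68 genes with a window. Of the 19 genes with GAANNTTC, 12 held a peak and 7 did not. HSPA1A and HSPA1L, both among those without a peak, have overlapping windows and hold the same site, which was counted for each.

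A larger share of chaperone genes than of all coding genes held a peak, at similar fold and depth. The share was 65.3% (49 of 75, Wilson interval 54.1 to 75.1%), beside 41.6% of the 20033 coding genes. The median gene length was 18313 bases over the chaperone genes, 24130 over all coding genes and 33294 over coding genes with a peak. The fold is the authors' own value and sets the summit against a background, which the numbers place at the 10 kb around it on the same strand. Its median was 6.42 over the 120 chaperone peaks (exact binomial interval of the median 5.98 to 7.03) and 5.93 (5.88 to 5.96) over all 19265 peaks in coding genes. The reads under each summit, recovered from the deposited fold and p, had a median of 26 (21 to 33) in chaperone peaks and 22 (21 to 22) in coding-gene peaks. They ranged from 7 to 212 in chaperone genes and from 4 to 12385 in coding genes. A fold of at least 10 was reached by 18 chaperone peaks (15.0%), beside 11.6% of coding-gene peaks. No test was made of these differences, since the list has no replicates.

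Depth was uneven within the set. Deepest summits of the 49 genes with a peak had a median of 22 reads, and so did those of all 8327 coding genes with a peak. A deepest summit of at least 50 reads was found in 11 chaperone genes (14.7% of 75), beside 6.43% of coding genes. Of these 11 only DNAJB1 was a J protein. At least 4 peaks were held by 10 chaperone genes (13.3%), beside 7.76% of coding genes, and 19 held 1 peak. The 66 peaks in the other families had a median of 43 reads and the 54 peaks in J protein genes a median of 17, while median folds were 6.45 and 6.38.

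**Figure D1:**
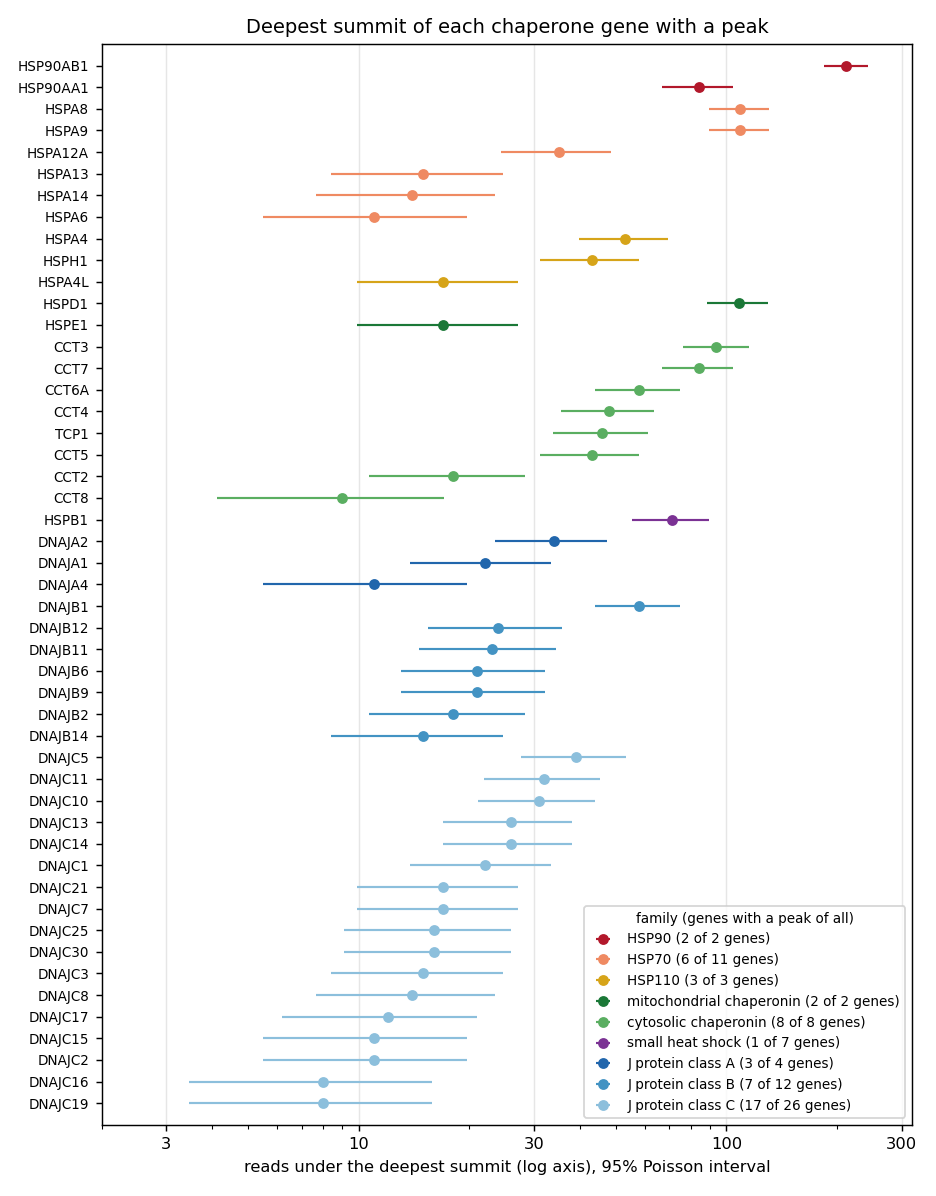
Reads under the deepest summit of each of the 49 chaperone genes with a peak (points, log axis), with exact Poisson intervals at 95% as lines and families in colour. HSP90AB1 stands at 212 reads, above the interval of every other gene, and most J protein genes lie below 30 reads.

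HSP90AB1 had the deepest summit of the set, while HSP90 peaks had the lowest median fold of any family, 3.54. HSP90AB1, the constitutive cytosolic HSP90, lies on chromosome 6 from 44246194 to 44253883 (GRCh38.p14, whose coordinates are those of hg38). Its 4 peaks held 86, 89, 168 and 212 reads from upstream to downstream, at folds of 3.15, 3.26, 6.29 and 8.62. The deepest, at 44253071 to 44253914, was 844 bases wide and its centre lay 391 bases from the downstream end of the gene. With 212 reads (Poisson interval 184 to 243) HSP90AB1 ranked 95 among the 8327 coding genes with a peak, and its interval did not meet that of the next chaperone. The low folds stood beside 1186 to 1331 reads in the surrounding 10 kb, the highest background of any member.

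HSP90AA1, the stress-inducible form, spans 59008 bases on chromosome 14 because RefSeq lists an alternative start far upstream. All 5 of its peaks lay in the most downstream 10% of that span, after the listed start at 102087044, the nearer of the 2 starts listed. They held 68, 46, 39, 84 and 44 reads from upstream to downstream. Folds of 2.84 to 6.40 included the lowest of the set, over 586 to 654 reads in 10 kb.

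HSP70 genes divided into a pair of deep genes and others that were shallow or without a peak. HSPA8, the constitutive HSP70 of the cytosol, held 5 peaks in 4974 bases, or 10.1 per 10 kb. Their summits held 75, 78, 107, 81 and 109 reads from upstream to downstream, a spread of 1.45 times, over 712 to 727 reads in 10 kb. The 5 summits were of similar height, and each held 10.5 to 15.0% of the reads in its 10 kb. HSPA9, the mitochondrial HSP70 that also pulls proteins through the inner membrane, held 6 peaks with 90, 107, 55, 60, 109 and 49 reads. Its first peak, at 138575078 to 138575351 on chromosome 5, began 50 bases after the listed start and had the highest fold of the gene, 10.6.

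The other HSP70 genes had single or shallow peaks. HSPA13, an HSP70 of the microsomes, had peaks of 14 and 15 reads, and HSPA6, a strictly stress-inducible form, had 1 peak of 11 reads (5.49 to 19.7). HSPA6 has a near-identical pseudogene neighbour, HSPA7, so its reads are uncertain. HSPA14, a ribosome-associated form, had 1 peak of 14 reads, where MSANTD7 overlaps it. HSPA12A had the highest fold of all members, 21.2, but its peak lay on the opposite strand from the gene, was 200 bases wide, the narrowest width in the list, and held all 35 reads of its 10 kb. No peak centre lay in HSPA1A or HSPA1B, the main heat-induced HSP70 genes, or in HSPA1L, HSPA2 or HSPA12B. HSPA1A and HSPA1B are near-identical copies, and how the authors treated reads that align equally well in several places was not stated in the labels. A gene without a peak is not shown to lack reads.

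All 3 HSP110 genes held a peak (Wilson interval 43.9 to 100%), beside 41.6% of coding genes. In HSPA4 and HSPA4L a peak centre lay within 500 bases after a listed start. HSPA4 had 53 reads (39.7 to 69.3) at a fold of 16.5 in a peak that began 99 bases after the start, and 17 reads at a fold of 8.04 in a peak 1987 bases from the downstream end. HSPH1 had 43 reads at a fold of 15.4 in a peak that began 498 bases after its start and had its centre 775 bases after it. HSPA4L had 17 reads at a fold of 9.38, beginning 63 bases after the nearest listed start. These peaks held 37.0 to 46.5% of the reads in their 10 kb, except the downstream HSPA4 peak with 27.4%.

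The mitochondrial chaperonin genes HSPD1 and HSPE1 lie head to head on chromosome 2, with 105 bases between HSPE1's start and the outermost listed start of HSPD1. HSPD1 held 5 peaks on its own minus strand, with 36, 96, 108, 43 and 48 reads from upstream to downstream. The deepest, at 197497016 to 197497376, had a fold of 10.1, and the most upstream began 23 bases after the listed start whose window is printed above. HSPE1 held 1 peak on the plus strand, at 197500413 to 197500821, with 17 reads (9.90 to 27.2) and a fold of 6.08, where the readthrough gene HSPE1-MOB4 overlaps it. The deepest summits of HSPD1 (108 reads, interval 88.6 to 130) and HSPE1 differed by more than their counting intervals.

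All 8 genes of the cytosolic chaperonin in the set held a peak (Wilson interval 67.6 to 100%), beside 41.6% of coding genes. They held 28 peaks in all, with a median of 33 reads. The assembled ring holds its different subunits in equal number, but that is a measure of protein, and summit reads come from RNA. Deepest summits ran from 9 reads in CCT8 (4.12 to 17.1) to 94 in CCT3 (76.0 to 115). Between them lay CCT2 with 18, CCT5 with 43, TCP1 with 46, CCT4 with 48, CCT6A with 58 and CCT7 with 84. The pseudogene CCT8P1 held 18 reads, and reads of CCT8 could have been placed there. CCT3 held 9 peaks, the most of any member, and CCT5 held 6.

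Peaks in the chaperonin genes were placed differently from gene to gene. CCT3 and CCT7 were deepest at their downstream ends: 94 reads at a fold of 14.4 for CCT3, centred 104 bases from its end, and 84 reads at 13.4 for CCT7, centred 120 bases from its end. Their start peaks held 23 and 11 reads. CCT4 and CCT8 had a start peak alone, of 48 reads at a fold of 16.6 and of 9 reads at 5.10. CCT5 had summits of similar height, with 33 to 43 reads over its 6 peaks. The TCP1 start peak, 917 bases wide, was the widest of all members and held 46 reads.

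**Figure D2:**
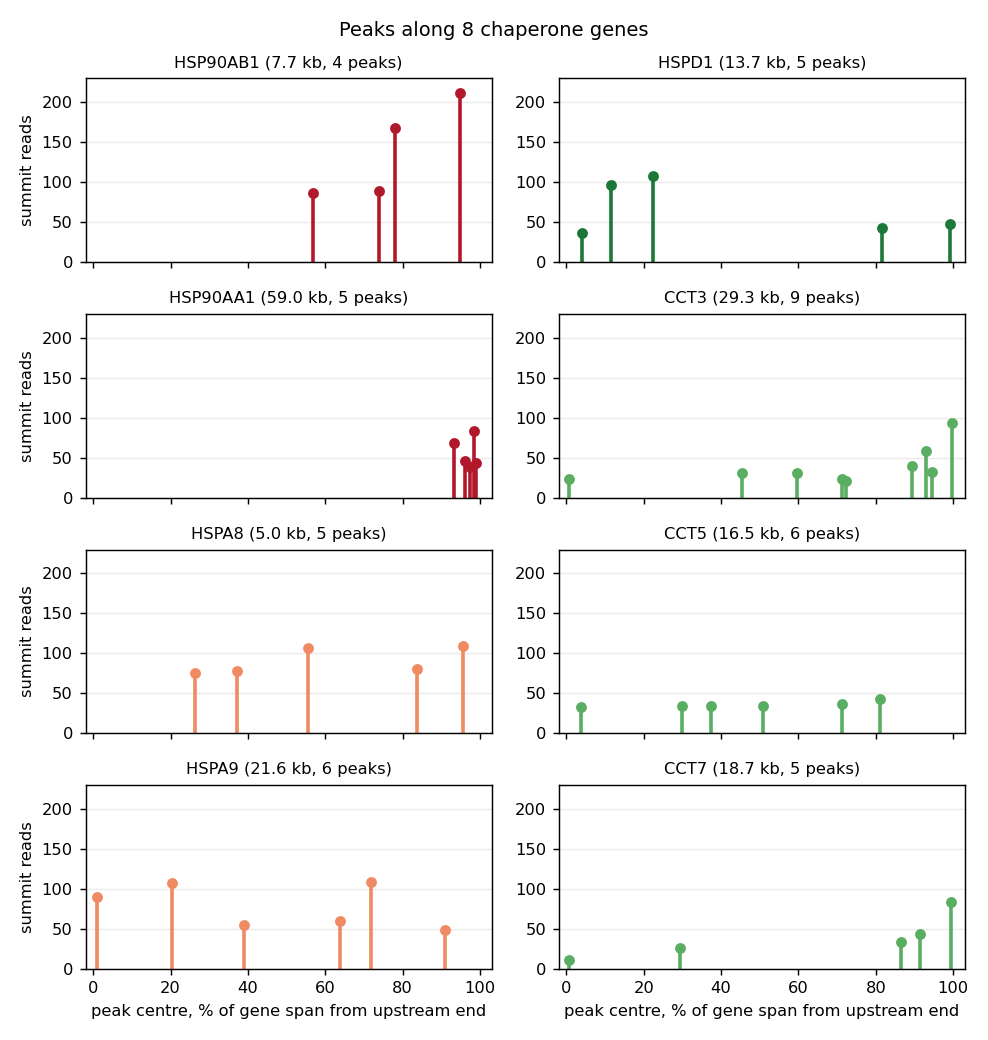
Reads under each own-strand summit (vertical axis) against the position of the peak centre, in percent of the gene span from its upstream end, for 8 chaperone genes. The HSP90AA1 peaks lie together at the downstream end, CCT3 and CCT7 are highest there, and the HSPA8 and CCT5 peaks differ little in height.

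Among small heat shock genes HSPB1 alone held peaks, 1 of 7 genes (14.3%, Wilson interval 2.57 to 51.3%, which takes in the 41.6% of coding genes). These genes are short, with a median length of 1620 bases. HSPB1, for HSP27, which also protects actin filaments, held 3 peaks in 1620 bases, with 71, 26 and 43 reads at folds of 15.2, 5.70 and 9.28. At 18.5 per 10 kb it had the densest peaks of any member. HSPB2, HSPB3, HSPB6, HSPB7 and HSPB8, known mainly from muscle and heart, and HSPB9, known from testis, had none.

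J proteins carry the J domain that stimulates HSP70, and 27 of the 42 genes held a peak (64.3%, Wilson interval 49.2 to 77.0%), beside 41.6% of coding genes. Their median length was 29364 bases. By class these were 3 of 4 in class A, 7 of 12 in class B and 17 of 26 in class C. DNAJB1, the main stress-inducible partner of cytosolic HSP70, was deepest with 58 reads (44 to 75), and its 4 own-strand peaks held 58, 33, 32 and 34 reads from upstream to downstream. Those 4 lay in the most downstream 10% of a span of 45623 bases with 3 listed starts, and the first began 59 bases after the listed start at 14518397 on chromosome 19. Of the class A co-chaperones of HSPA8, DNAJA2 held peaks of 34, 16 and 25 reads, and DNAJA1 of 16, 22 and 17. DNAJA4 held 1 of 11 reads, and DNAJA3, the mitochondrial member, held none.

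In class C the deepest was DNAJC5, for cysteine string protein of secretory vesicles, with 39 reads in a peak 94.6% along the gene, beside 30 in its other own-strand peak. DNAJC11, a mitochondrial protein linked to cristae, followed with 32 reads. DNAJC13, an endosomal J protein, had 26 reads at a fold of 15.0, and 26 of the 40 reads in its 10 kb lay under that summit. DNAJC14, of the endoplasmic reticulum membrane, also reached 26 reads, but on the opposite strand, and 15 on its own. Of class B, DNAJB12, also of that membrane, reached 24 reads, DNAJB6, which suppresses aggregation of polyglutamine proteins, reached 21 over 4 peaks, and DNAJB2, which binds ubiquitin chains, reached 18. DNAJC21, a factor in ribosome maturation, had 1 peak of 17 reads. The remaining J protein genes with a peak, apart from those of the endoplasmic reticulum lumen, were DNAJB14, DNAJC2, DNAJC7, DNAJC8, DNAJC15, DNAJC16, DNAJC17, DNAJC19, DNAJC25 and DNAJC30, with deepest summits of 8 to 17 reads.

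The label of the set did not cover all of its members. Although chosen as cytosolic and mitochondrial chaperones, the symbols took in 6 genes of the endoplasmic reticulum lumen: HSPA13, DNAJB9, DNAJB11, DNAJC1, DNAJC3 and DNAJC10. All 6 held a peak, with 10 to 31 reads over 12 peaks. The deepest was DNAJC10, a disulfide reductase, with 31 reads at a fold of 13.8, followed by DNAJB11, a partner of the luminal HSP70, with 23 reads at 11.5. DNAJC1 had 22 and 17 reads, DNAJB9, a target of the unfolded protein response, 21 and 11, and DNAJC3, an inhibitor of eIF2 kinases, 15 and 10. Of the 8 members listed here as mitochondrial, 7 held a peak (87.5%, Wilson interval 52.9 to 97.8%), beside 41.6% of coding genes. DNAJA3 was the exception among those listed.

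The 15 J protein genes without a peak were DNAJA3, DNAJB4, DNAJB5, DNAJB7, DNAJB8, DNAJB13, DNAJC4, DNAJC6, DNAJC9, DNAJC12, DNAJC18, DNAJC22, DNAJC24, DNAJC27 and DNAJC28. DNAJB7, DNAJB8 and DNAJB13 are known mainly from testis and DNAJC6, auxilin, from neurons.

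**Figure D3:**
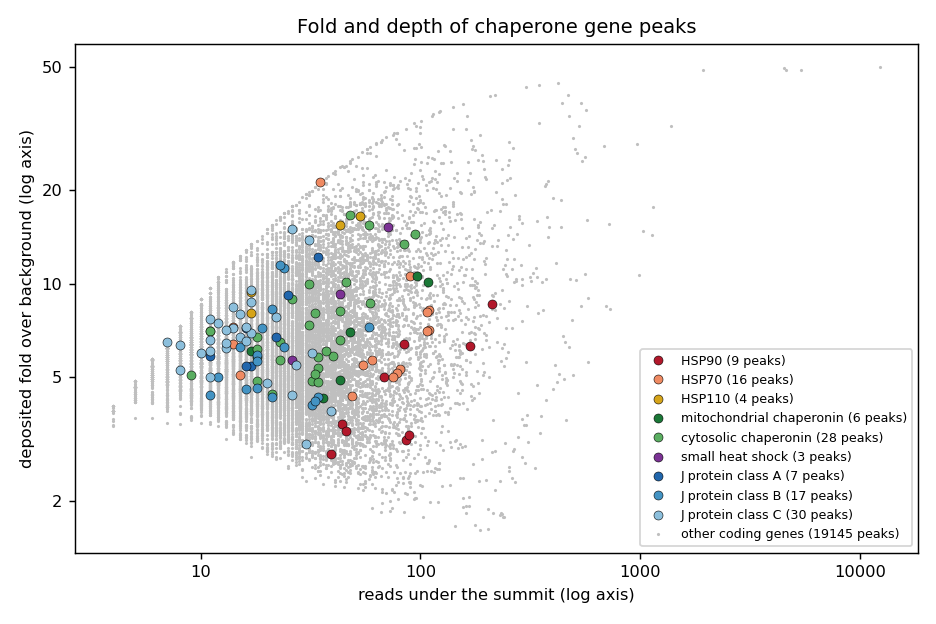
Deposited fold against reads under the summit, both on log axes, for the 120 chaperone peaks (colours by family) and the 19145 other peaks in coding genes (grey). HSP90 peaks combine many reads with folds under 10, and the HSPA12A peak at a fold of 21.2 lies at the upper edge of the cloud.

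Peaks had the orientation of the chaperone RNAs. Gene strand, taken from the RefSeq promoter table, was known for 68 members, and 110 of the 115 peaks in them lay on the strand of the gene (95.7%, Wilson interval 90.2 to 98.1%), beside 94.3% over all coding genes. Of the 5 on the opposite strand, the DNAJB1 peak of 24 reads lay in TECR and the DNAJC17 peak of 12 reads in GCHFR, both plus-strand genes, and the DNAJC14 peak of 26 reads lay where TMEM198B overlaps it. The HSPA12A and DNAJC5 peaks, each 200 bases wide, lay in no other gene, with 35 and 7 reads. HSPA12A and DNAJC17 therefore counted as genes with a peak through the opposite strand only.

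Chaperone peaks gathered at both ends of their genes, at shares near those of coding genes at large. Of the 110 own-strand peaks 30 had their centre in the most upstream 10% of the gene span (27.3%) and 32 in the most downstream 10% (29.1%). Over 15813 own-strand peaks in all coding genes these shares were 28.0 and 24.9%. The downstream 32 took in the 5 HSP90AA1 and 4 own-strand DNAJB1 peaks, whose gene spans reach far upstream of the start they follow. One of those DNAJB1 peaks also counted as a start peak. Within 500 bases after a listed start lay 29 chaperone peaks (26.4%), beside 24.8% over coding genes. Within 500 bases of the downstream end lay 11 (10.0%), beside 9.52%. Each of the start and end shares lay near its background.

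**Figure D4:**
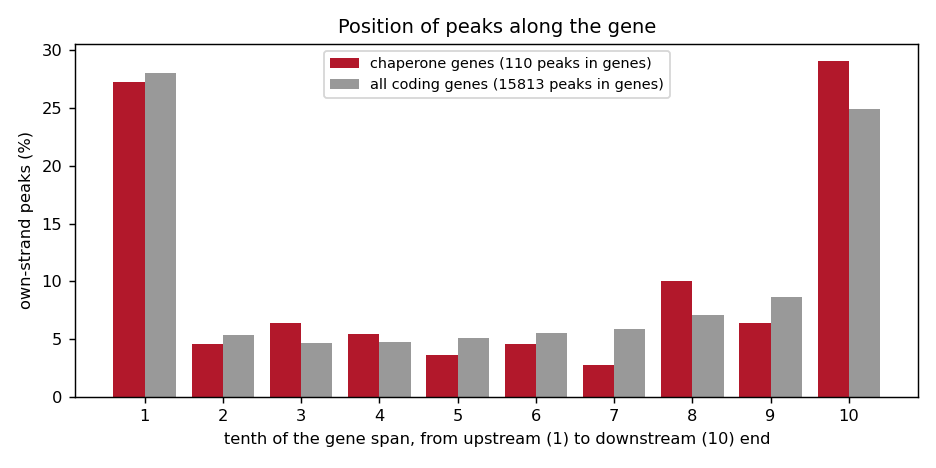
Percent of own-strand peaks in each of 10 equal parts of the gene span, from upstream (1) to downstream (10), for chaperone genes (red, left bars, 110 peaks) and all coding genes (grey, right bars, 15813 peaks). The outermost parts hold 27.3 and 29.1% of chaperone peaks, and 28.0 and 24.9% of peaks in all coding genes.

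Start peaks had higher folds than peaks inside genes. Their distance from the start was set in part by their definition, a centre within 500 bases after a listed start. In 29 chaperone genes with a start peak, the upstream edge of the peak lay a median of 63 bases after the listed start, with quartiles of 33 and 78 bases, beside a median of 72 (41 to 116) over coding genes. Only CCT5 and TCP1 had an edge before the listed start, by 182 and 12 bases. The median fold of start peaks was 8.02 (exact binomial interval 7.06 to 10.1), against 5.80 (5.30 to 6.25) for the 70 peaks inside genes, and 7.69 against 5.45 over coding genes. These intervals treat peaks as independent, although the 70 inside peaks came from 30 genes. Median summit reads were 17 (15 to 33) at starts and 31.5 (22 to 37) inside, over 66 and 212 reads in 10 kb, and 20 and 22 over coding genes. Within J protein genes, which held 17 of the 29 start peaks, they were 16 at starts and 17.5 inside, and within the other families 34.5 and 43. The lower background moved with the higher fold, and its part in it was not tested. A start peak was the only own-strand peak class in 11 genes, among them CCT4, CCT8, HSPE1, HSPA4L and 7 J protein genes.

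Partners and regulators of the chaperones were taken from a list of 48 genes, of which 46 were in the gene table used here. A peak was held by 35 of the 46 (76.1%, Wilson interval 62.1 to 86.1%), beside 41.6% of coding genes. The deepest was LONP1, the protease of the mitochondrial matrix, with 10 peaks and 136 reads (114 to 161) at a fold of 15.9 near its start. STUB1, the ubiquitin ligase that marks chaperone clients, had 99 reads, and the HSP90 co-chaperones PTGES3, CDC37, FKBP4 and AHSA1 had 89, 71, 66 and 50. HSF1, the heat shock factor itself, had 57 reads at a fold of 12.0, and GAK, a J-domain kinase of clathrin uncoating, had 50 over 10 peaks. For STUB1, FKBP4 and HSF1 no gene strand was available, so whether their deepest peaks lay on it is unknown. HSF2, HSBP1, BAG4, BAG6, CHORDC1, PDCL, PDCL3, PFDN4, PFDN6, TBCE and TXNDC9 held none.

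Pseudogenes named after the members also held peaks. Of 133 such genes 20 held a peak (15.0%), beside 5.01% of all 17051 pseudogenes, with deepest summits of 5 to 71 reads. HSP90AB3P on chromosome 4 was deepest with 71 reads at a fold of 15.2, followed by HSP90AA2P with 30, HSPA9P1 with 28, HSPD1P1 with 26 and HSPA8P9 with 25. These copies resemble the mature RNAs of HSP90AB1, HSP90AA1, HSPA9, HSPD1 and HSPA8 closely, so reads of either could be placed on the other, and the values of these genes are uncertain to that extent. Shallower copies with a peak included CCT8P1 with 18 reads, beside 9 in CCT8, CCT5P2 with 17 and HSPB1P2 with 16. The same uncertainty applies to the genes that the shallower copies are named after.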

How the data were processed

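One peak list of the immunoprecipitate was analysed. Per the submitters' processing notes, the tools were cutadapt, BWA and MACS2 and the build was hg38. Versions and settings are not given in the sources used here, and deposited peak names show that strands were called apart. The deposited columns are a score (10 times the deposited −log10 q, integer part), the deposited fold (a ratio of summit to background), −log10 p and −log10 q. The lowest deposited −log10 q was 1.31.

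Summit reads k and background b were the whole number and level for which (k + 1)/(b + 1) gives the fold and a Poisson tail beyond k gives the deposited p, within 0.0001 plus 0.00001 of it. This held in 21026 of 21031 peaks and in all 120 chaperone peaks. Multiplied by 50, b was a whole number of reads within 0.05 in all chaperone peaks but 1, in DNAJC5. Intervals at 95% are exact Poisson, Wilson or exact binomial and cover counting error only, since PCR copies are not independent molecules. The recovery was tested on simulated data. Library totals were not used, so depth is known only under each summit. Alternatives to the assignment of peaks and to the thresholds are in the closing section.

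Peak centres were set on RefSeq GRCh38.p14 gene spans of chromosomes 1 to 22, X and Y. Strand and starts came from the RefSeq promoter table, where 15841 of 20033 coding genes matched. Members and lists were chosen with earlier results of these data known. Named in full were HSP70, HSP110, HSP90 and chaperonin genes, the 15 deepest J protein genes, genes with 4 or more peaks and the 10 highest folds. Of the partner list the 8 deepest were named, with those lacking a peak. Other members were named by value or range. Pseudogenes, gene-end zones and promoter letters were added after the list was seen. Python 3.11.15, pandas 2.3.3, numpy 2.4.6, scipy 1.17.1 and matplotlib 3.10.9 were used.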

Additional observations from a re-analysis of the deposited data

How the results depend on the processing

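Alternatives changed 1 choice at a time: any overlap or the summit in place of the centre, only peaks in 1 gene, only own-strand peaks, −log10 q at or above the list median of 9.16, a fold of at least 5, at least 10 summit reads, no peaks at most 2 bases wider than 200, and, added after seeing the data, no genes of the endoplasmic reticulum lumen. With the stricter −log10 q, 32 chaperone genes held a peak (42.7%, beside 25.9% of coding genes), the median fold was 7.23 (coding genes 7.55) and median summit reads were 36.5 (coding genes 33). The median fold thus lay below that of coding genes there, and above it in the main setting. With a fold of at least 5 the median fold was 7.06. Both shifts follow from removing peaks by significance or fold. Under the other alternatives 43 to 49 chaperone genes held a peak, and own-strand shares ran from 95.6 to 98.0% under the 7 alternatives for which they were computed. Partner genes with a peak numbered 24 to 35 of 46, beside 25.9 to 42.0% of coding genes. The median position along the gene was 56.1% of its length in the main setting (interval 36.5 to 73.9%), beside 54.1% over coding genes. It was 37.2% with a fold of at least 5 and 50.8 to 61.6% otherwise. Since peaks gathered at both ends, this median is not a typical position. Leaving out replicates was not possible with 1 list. No paired analysis was possible because the list carries no replicate columns and no test was made. Peaks of few reads limit depth: 4 chaperone peaks (3.33%) held under 10 reads.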
